A study of Canis lupus familiaris with 9 samples.

Results

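The HOX genes of the dog were examined by cluster and by position within the cluster. Members were all genes whose symbol in the array's annotation table was HOX, a cluster letter from A to D and a paralogue number. A gene with several probe sets was represented by the one with the highest mean over the 9 arrays. The rule found 31 HOX genes among 15947 named genes, with 10 in cluster A, 9 in cluster B, 8 in cluster C and 4 in cluster D. Other HOX genes of the dog were not analysed here.

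HOX genes encode homeodomain transcription factors that give cells their address along the head to tail axis of the embryo. They lie in 4 clusters, and genes of the same paralogue number in different clusters descend from 1 ancestral gene. Low numbered genes are switched on early and near the hindbrain, and high numbered genes later and nearer the tail and the ends of the limbs. In vertebrate embryos the forebrain and midbrain form without HOX expression, whereas in humans skin fibroblasts keep in culture a HOX pattern typical of the body site they came from. Here paralogues 1 to 3 are called anterior, 4 to 8 central and 9 to 13 posterior.

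Each of 9 samples of untreated primary cultures of Canis lupus familiaris was measured on its own Affymetrix array, with 3 arrays per group. By their labels, SKN cultures were neural precursors grown from skin in serum free medium with EGF, FGF and the supplement B-27, at first as neurospheres. Brain cultures were labelled as neural precursors grown from brain, and Fibroblast cultures were skin cells grown in medium with serum. The labels used here give neither the medium of the Brain cultures, the body site of the skin, the region of brain, nor the dog behind each array, so culture medium cannot be told apart from cell type. Nor do they say that the 3 samples of a group were separate dogs or cultures. The p-values therefore reflect just the variation among these 9 samples, which may be technical.

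Values are log2 signals as deposited, and a difference of 1 log2 unit is a 2-fold difference in signal. Array medians lay between 4.715 and 4.786 log2 units. A gene was called when its adjusted p was below 0.05 in limma's moderated test over all 32205 probe sets. In bulk cultures fewer expressing cells and less RNA per cell cannot be told apart. No detection calls were used, so a low signal is no evidence that a transcript was missing, and a fold given below is a ratio of signals. Signals of different HOX genes come from different probes, so only differences of the same gene between groups are compared.

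Mean signals of the fibroblast and of the Schwann cell and neural crest markers separated the Brain arrays from the others. The mean of 9 fibroblast markers was 11.02, 10.80 and 10.83 log2 units in SKN arrays, 4.70, 4.76 and 6.57 in Brain arrays and 10.74, 10.66 and 10.38 in Fibroblast arrays. The mean of 6 Schwann cell and neural crest markers was 4.59, 4.47 and 4.61 log2 units in SKN arrays, 8.15, 8.36 and 8.31 in Brain arrays and 5.70, 4.59 and 4.47 in Fibroblast arrays. Brain 3 thus stood above its group in fibroblast markers, and Fibroblast 1 above its group in Schwann cell and neural crest markers. In limma, 8 of the 9 fibroblast markers were called lower in Brain than in Fibroblast arrays (9.37% of all probe sets). Against Brain arrays, 8 were called higher in SKN arrays (7.64%). THY1 was not called, with a Brain minus Fibroblast difference of 1.39 log2 units (adjusted p = 0.0808). All Schwann cell and neural crest markers but S100B were called higher in Brain than in Fibroblast arrays (11.2%). The same 5 were called lower in SKN than in Brain arrays (8.73%). Of 7 neural precursor markers, 2 (NES and PAX6) were called lower in SKN than in Brain arrays (8.73% of all probe sets). Between SKN and Fibroblast arrays 0 were called in either direction (limma, 0 higher and 2 lower at an unadjusted p below 0.05). Between Brain and Fibroblast arrays 1 of the 7 (NES) was called higher in Brain arrays and 0 lower. That count was near the share of 11.2% over all probe sets. SOX2, a neural precursor factor, read 4.89, 5.57 and 5.28 log2 units in SKN arrays, 7.36, 7.16 and 5.34 in Brain arrays and 5.0, 5.35 and 5.16 in Fibroblast arrays. SKN and Fibroblast arrays overlapped, Brain 3 lay within the SKN range, and SKN minus Brain was not called (adjusted p = 0.0907). How far these other differences between the cultures account for the HOX signals below was not tested.

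**Figure D1:**
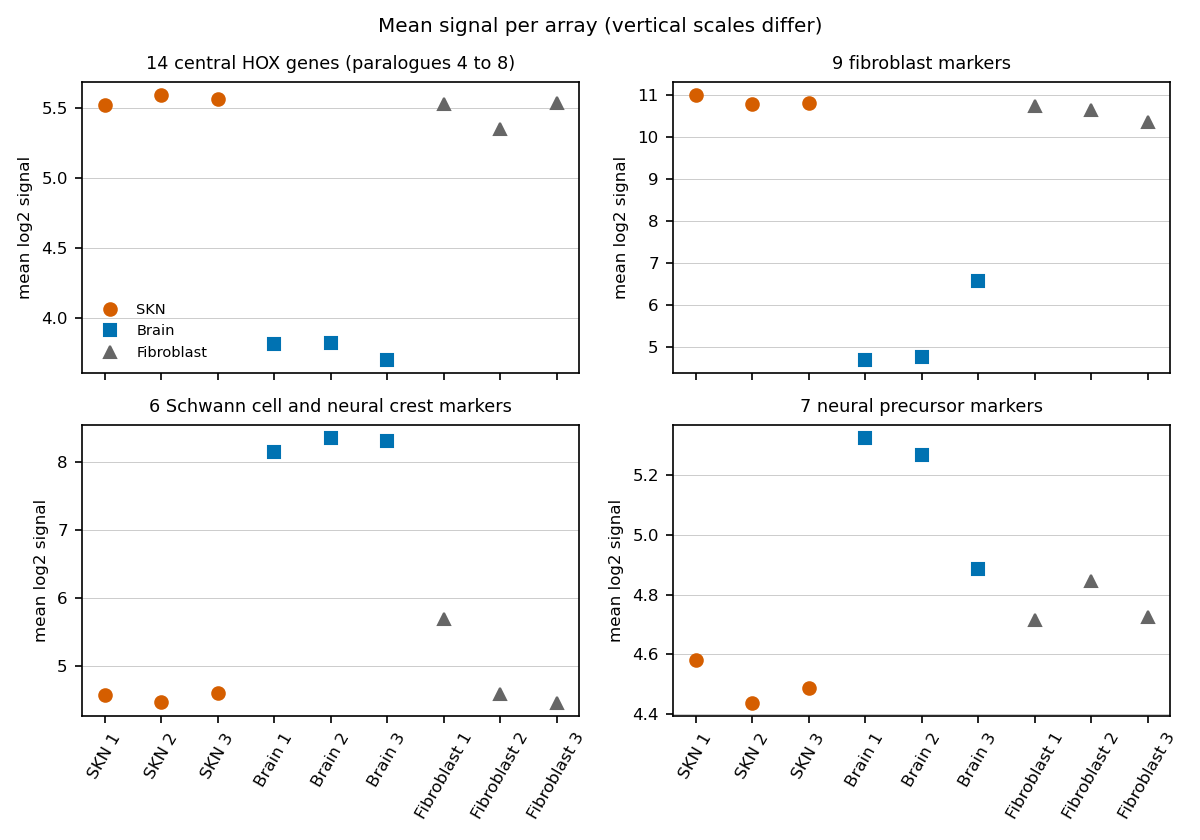
Mean log2 signal (vertical axes, with scales that differ between panels) of the 14 central HOX genes and of 3 marker lists in each array (horizontal axis), with SKN as circles, Brain as squares and Fibroblast as triangles. Brain arrays lie lowest in central HOX genes and in fibroblast markers, and Brain 3 stands apart in the fibroblast markers at 6.57 but not in the HOX genes.

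HOX signals were mostly higher in SKN than in Brain arrays. Of the 31 genes, 16 were called higher in SKN than in Brain arrays, where 7.64% of all probe sets were called higher. None of the 31 was called lower, against 8.73% of all probe sets, and at an unadjusted p below 0.05 limma's counts were 20 higher and 0 lower. The 16 were HOXA4, HOXA5, HOXA6, HOXA7, HOXA9, HOXA10, HOXB4, HOXB6, HOXB7, HOXB9, HOXC4, HOXC5, HOXC6, HOXC8, HOXC10 and HOXD8. In 20 genes every SKN array lay above every Brain array, which was so for 16.2% of all probe sets. The median difference over the 31 genes was 0.53 log2 units, from -0.13 to 3.99, while the median over all probe sets was 3.8e-04.

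The mean over the 31 genes was 4.80, 4.94 and 4.97 log2 units in SKN arrays, 3.87, 3.89 and 3.80 in Brain arrays and 4.94, 4.89 and 4.94 in Fibroblast arrays. SKN and Fibroblast means overlapped and Brain means lay below both. Brain 3, whose fibroblast markers were raised, had the lowest HOX mean of the 9 arrays. Without Brain 3, 12 of the 31 genes were called higher in SKN than in Brain arrays, and without Brain 3 and Fibroblast 1, 11 were.

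**Figure D2:**
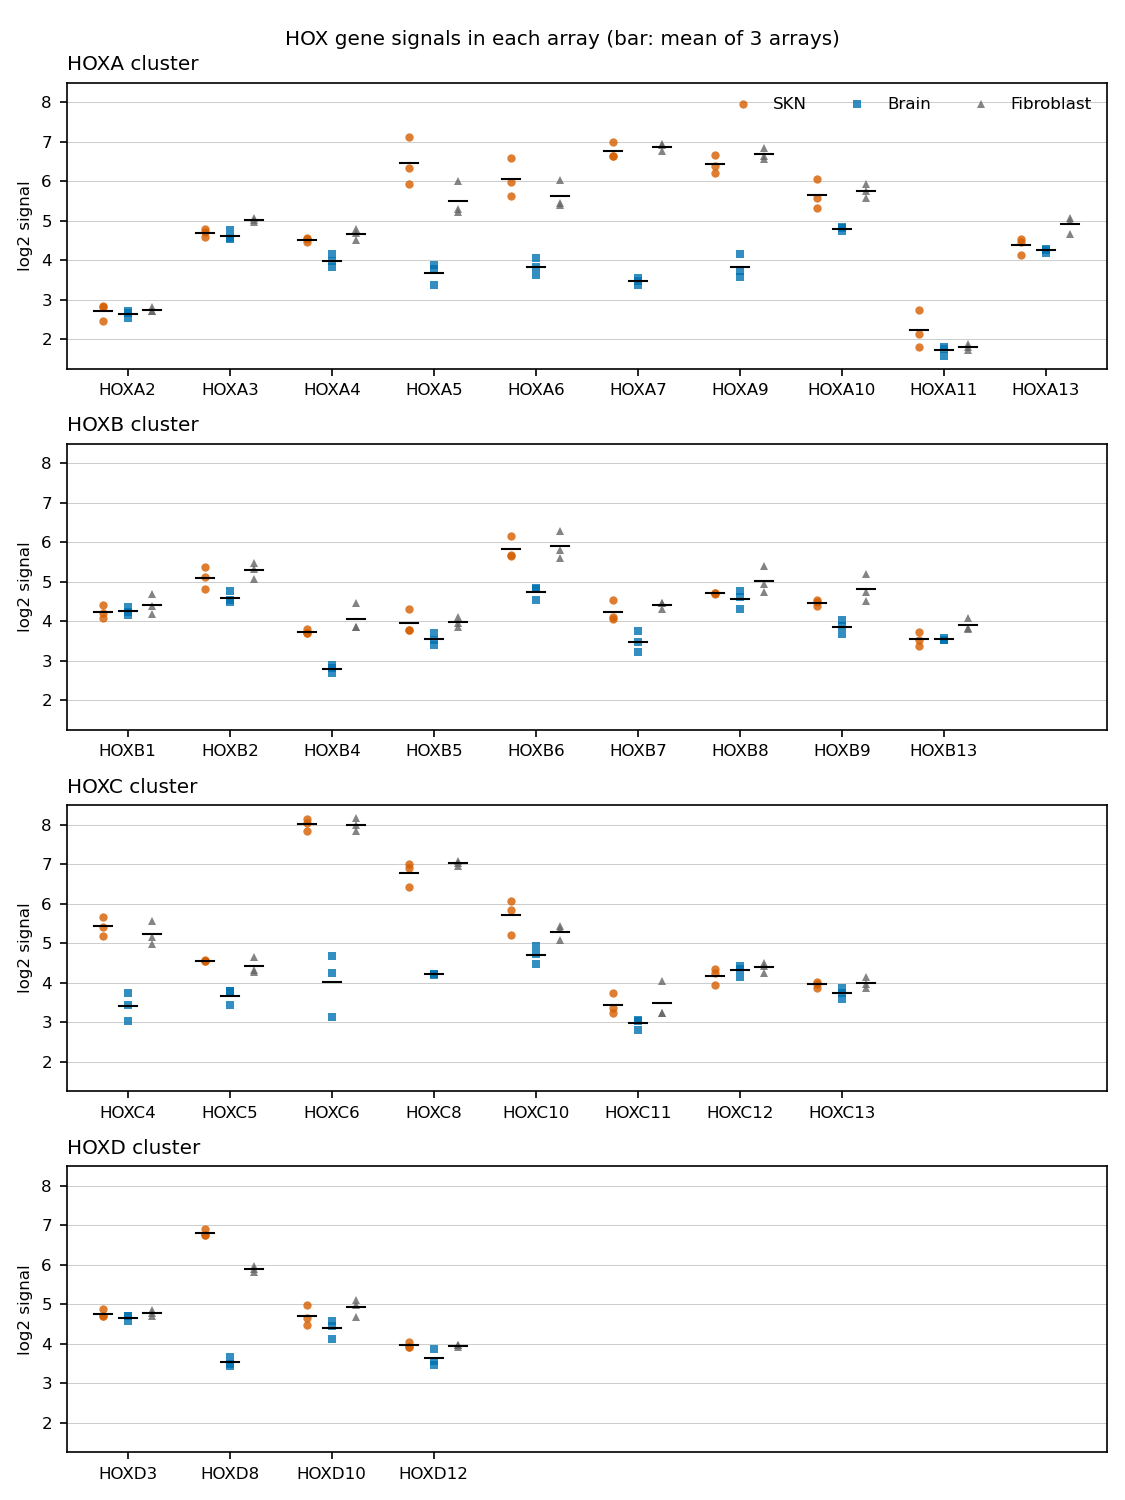
Log2 signal (vertical axis) of each HOX gene (horizontal axis, in paralogue order, a panel per cluster) in each array, with SKN as circles, Brain as squares, Fibroblast as triangles and a bar at the mean of 3 arrays. Brain arrays lie apart below the others for genes such as HOXA7, HOXC6, HOXC8 and HOXD8, while the groups overlap for anterior genes such as HOXA2 and HOXD3.

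The calls lay mainly in the central genes, beside 7.64% of all probe sets called higher. Of 14 central genes, 12 were called higher in SKN than in Brain arrays, with a median difference of 1.56 log2 units and a range of 0.14 to 3.99. In 13 of the 14 every SKN array lay above every Brain array. Of 12 posterior genes, 4 were called higher, with a median of 0.40 log2 units. Of 5 anterior genes, 0 were called, with a median of 0.08 log2 units, and 1 of them (HOXB2) had an unadjusted p below 0.05. For 5 genes a count of 0 was near the share over all probe sets. That the classes differ from one another was not tested.

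By cluster, 6 of 10 genes of cluster A, 4 of 9 of cluster B, 5 of 8 of cluster C and 1 of 4 of cluster D were called higher in SKN than in Brain arrays. Over all probe sets 7.64% were called higher. The median differences were 0.69 log2 units in cluster A, 0.50 in cluster B, 0.94 in cluster C and 0.32 in cluster D. In cluster B the highest difference was 1.10 log2 units (HOXB6), while clusters A, C and D each held a gene with a difference above 3 log2 units. These were HOXA7, HOXC6 and HOXD8. Central genes made up 4 of the 10 measured genes of cluster A, 5 of 9 of B, 4 of 8 of C and 1 of 4 of D, and cluster C had no anterior gene. Differences between the clusters, and the part of this make-up in them, were not tested.

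**Figure D3:**
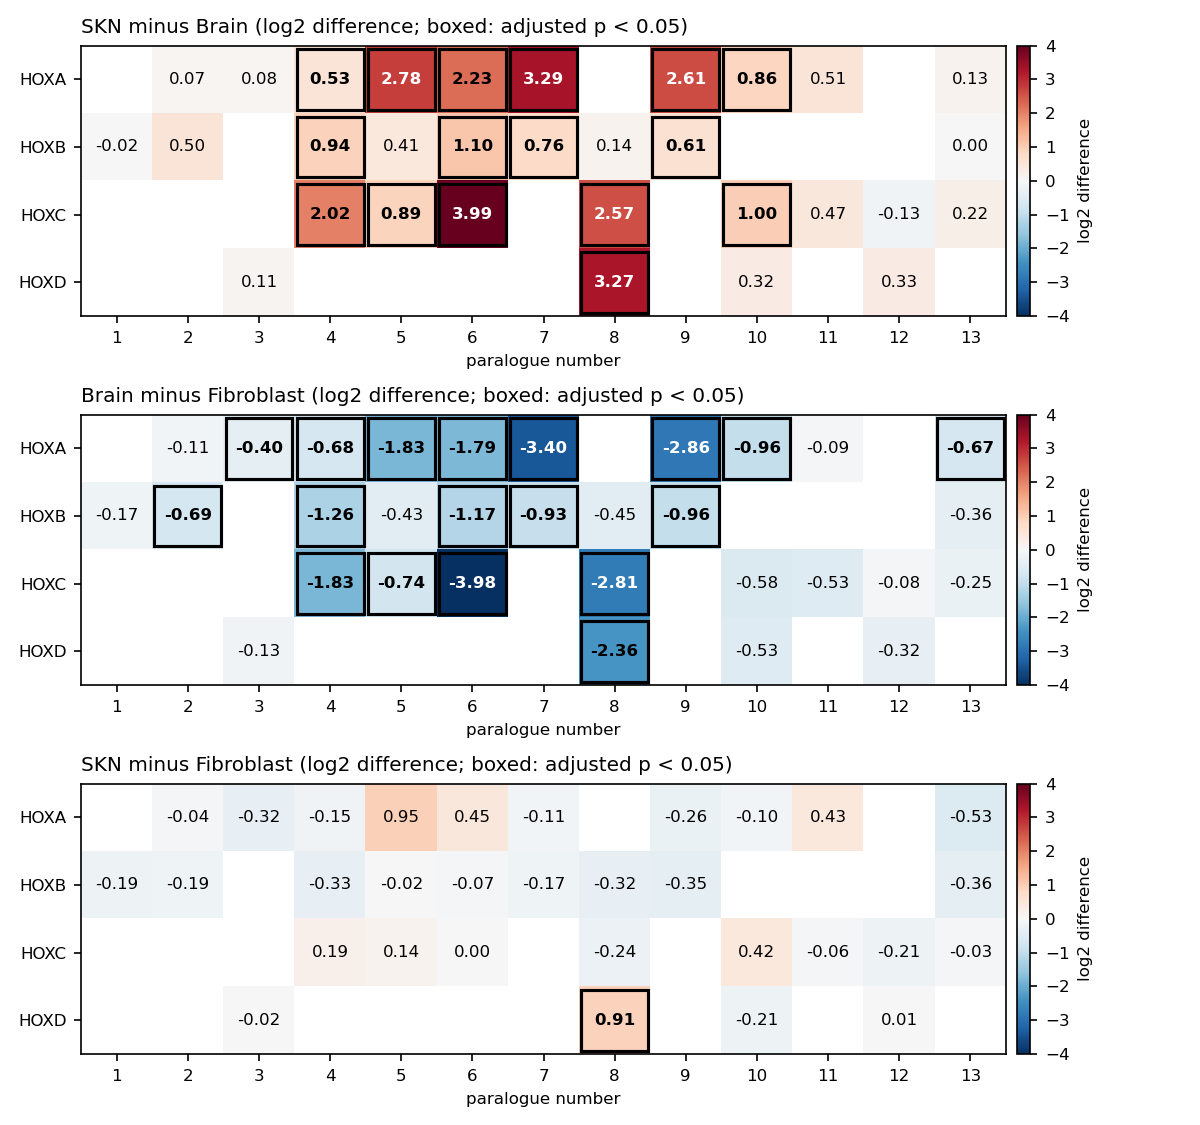
Log2 difference between group means (colour and printed value) of each HOX gene, by cluster (rows) and paralogue number (columns), in SKN minus Brain, Brain minus Fibroblast and SKN minus Fibroblast. Boxes mark adjusted p below 0.05 and blank cells have no gene analysed here. In each of the upper panels 12 of the 14 central genes have a box, all but HOXB5 and HOXB8, and the lowest panel has 1 box, at HOXD8.

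Of the 5 anterior genes, HOXA2, HOXB1 and HOXD3 were not called in any comparison. HOXA2, which patterns the second branchial arch, read 2.46, 2.85 and 2.81 log2 units in SKN arrays, 2.70, 2.53 and 2.67 in Brain arrays and 2.70, 2.72 and 2.82 in Fibroblast arrays. All 3 groups overlapped. Each of these signals lay below the lower quartile of its array, which was between 2.89 and 2.96 log2 units. HOXB1, which marks a hindbrain segment that gives rise to the facial nerve nucleus, read 4.09, 4.20 and 4.41 log2 units in SKN arrays, 4.36, 4.16 and 4.24 in Brain arrays and 4.39, 4.69 and 4.19 in Fibroblast arrays. Its SKN minus Brain difference was -0.02 log2 units, with a 95% interval of -0.36 to 0.33. HOXD3, a patterning gene of the upper neck vertebrae in mice, differed by 0.11 log2 units between SKN and Brain arrays (95% interval -0.12 to 0.34).

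HOXA3 and HOXB2 were the anterior genes called in any comparison, and both calls were between Brain and Fibroblast arrays. HOXA3, needed for the thymus and parathyroids in mice, read 4.71, 4.78 and 4.59 log2 units in SKN arrays, 4.52, 4.56 and 4.76 in Brain arrays and 5.06, 4.96 and 5.03 in Fibroblast arrays. Brain and Fibroblast arrays did not overlap, and the difference was -0.40 ± 0.10 log2 units (SE, adjusted p = 0.0284). HOXB2, a hindbrain gene next to HOXB1 in number, read 4.81, 5.37 and 5.12 log2 units in SKN arrays, 4.50, 4.54 and 4.76 in Brain arrays and 5.48, 5.07 and 5.31 in Fibroblast arrays. Its Brain minus Fibroblast difference was -0.69 ± 0.17 log2 units (SE, adjusted p = 0.0223). The HOXA3 call ended without Brain 1, Brain 2, or any 1 of the Fibroblast arrays (adjusted p up to 0.0848), and the HOXB2 call without Brain 1, Brain 2, Fibroblast 1 or Fibroblast 3 (up to 0.0713).

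Paralogue group 4 was called in all 3 clusters measured. HOXA4 read 4.53, 4.56 and 4.45 log2 units in SKN arrays, 4.15, 3.82 and 3.98 in Brain arrays and 4.69, 4.51 and 4.80 in Fibroblast arrays. HOXB4, known for expanding blood stem cells when overexpressed, read 3.70, 3.80 and 3.70 log2 units in SKN arrays, 2.68, 2.81 and 2.90 in Brain arrays and 3.87, 3.86 and 4.47 in Fibroblast arrays. HOXC4 read 5.67, 5.19 and 5.41 log2 units in SKN arrays, 3.43, 3.74 and 3.04 in Brain arrays and 5.55, 5.15 and 4.99 in Fibroblast arrays. Brain arrays lay below both other groups without overlap in each of the 3 genes. SKN minus Brain differences were 0.53 ± 0.12 log2 units for HOXA4 (SE, adjusted p = 0.0194), 0.94 ± 0.17 for HOXB4 (adjusted p = 0.00637) and 2.02 ± 0.22 for HOXC4 (adjusted p = 0.000516). The HOXA4 call ended without SKN 1, SKN 2, Brain 2 or Brain 3 (adjusted p up to 0.0652).

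In paralogue group 5, HOXA5 and HOXC5 were called between SKN and Brain arrays and HOXB5 was not. HOXA5, needed for the lung and the neck to chest transition of the skeleton in mice, read 6.33, 5.92 and 7.11 log2 units in SKN arrays, 3.36, 3.87 and 3.78 in Brain arrays and 5.99, 5.28 and 5.23 in Fibroblast arrays. HOXC5 read 4.54, 4.57 and 4.54 log2 units in SKN arrays, 3.78, 3.44 and 3.78 in Brain arrays and 4.26, 4.31 and 4.65 in Fibroblast arrays. HOXB5 read 3.78, 4.30 and 3.78 log2 units in SKN arrays, 3.39, 3.71 and 3.52 in Brain arrays and 3.96, 3.85 and 4.11 in Fibroblast arrays. Brain arrays were lowest in all 3 genes, by a wide gap in HOXA5 and a narrow one in HOXB5. SKN minus Brain differences were 2.78 ± 0.32 log2 units for HOXA5 (SE, adjusted p = 0.00071) and 0.89 ± 0.14 for HOXC5 (adjusted p = 0.00348). HOXB5 was not called, at 0.41 log2 units (95% interval 0.04 to 0.79, adjusted p = 0.14).

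Paralogue group 6 held the largest of the 31 differences. HOXC6, a marker of the chest level of the body axis, read 8.03, 8.14 and 7.84 log2 units in SKN arrays, 4.68, 4.23 and 3.13 in Brain arrays and 8.17, 7.83 and 8.0 in Fibroblast arrays. Brain arrays lay far below both other groups and spread over more than 1 log2 unit, with Brain 3 lowest. The SKN minus Brain difference was 3.99 ± 0.34 log2 units (SE, adjusted p = 0.000132), a signal ratio of 15.9. HOXA6 read 5.98, 5.63 and 6.58 log2 units in SKN arrays, 3.63, 4.04 and 3.81 in Brain arrays and 6.02, 5.39 and 5.44 in Fibroblast arrays. HOXB6 read 5.68, 6.17 and 5.65 log2 units in SKN arrays, 4.83, 4.81 and 4.55 in Brain arrays and 5.61, 5.81 and 6.29 in Fibroblast arrays. In both genes the Brain arrays did not overlap the SKN arrays. The SKN minus Brain difference was 2.23 ± 0.26 log2 units for HOXA6 (SE, adjusted p = 0.000735) and 1.10 ± 0.21 for HOXB6 (adjusted p = 0.00787).

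Both measured members of group 7 were called. HOXA7, which acts in patterning the chest vertebrae in mice, read 6.63, 7.0 and 6.63 log2 units in SKN arrays, 3.38, 3.54 and 3.47 in Brain arrays and 6.91, 6.76 and 6.93 in Fibroblast arrays. The Brain arrays lay within 0.2 log2 units of each other and far below the rest. The SKN minus Brain difference was 3.29 ± 0.13 log2 units (SE, adjusted p = 2.25e-06), a signal ratio of 9.79. HOXB7 read 4.07, 4.55 and 4.11 log2 units in SKN arrays, 3.75, 3.48 and 3.23 in Brain arrays and 4.47, 4.47 and 4.32 in Fibroblast arrays. Its SKN minus Brain difference was 0.76 ± 0.17 log2 units (SE, adjusted p = 0.0186), without overlap. That call ended without SKN 2, Brain 2 or Brain 3 (adjusted p up to 0.061).

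Paralogue group 8 was measured in clusters B, C and D. HOXD8 read 6.74, 6.74 and 6.91 log2 units in SKN arrays, 3.49, 3.44 and 3.66 in Brain arrays and 5.97, 5.90 and 5.81 in Fibroblast arrays. The 3 groups were apart from one another, with SKN highest and Brain lowest. The SKN minus Brain difference of 3.27 ± 0.11 log2 units had the lowest adjusted p of the 31 genes (SE, adjusted p = 9.95e-07), and the signal ratio was 9.65. HOXC8, a regulator of chest level identity in mice, read 6.91, 6.99 and 6.43 log2 units in SKN arrays, 4.21, 4.22 and 4.19 in Brain arrays and 6.94, 7.04 and 7.08 in Fibroblast arrays. It was higher in SKN than in Brain arrays by 2.57 ± 0.15 log2 units (SE, adjusted p = 1.87e-05). HOXB8, which acts in blood progenitors and microglia in mice, read 4.69, 4.72 and 4.71 log2 units in SKN arrays, 4.63, 4.32 and 4.77 in Brain arrays and 4.94, 4.75 and 5.39 in Fibroblast arrays. SKN and Brain arrays overlapped in HOXB8, with a difference of 0.14 log2 units (95% interval -0.27 to 0.55).

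Among posterior genes the calls lay in groups 9 and 10. HOXA9, a regulator of blood progenitors that is often high in acute myeloid leukaemia, read 6.21, 6.39 and 6.67 log2 units in SKN arrays, 4.14, 3.73 and 3.58 in Brain arrays and 6.64, 6.55 and 6.85 in Fibroblast arrays. HOXB9 read 4.39, 4.54 and 4.49 log2 units in SKN arrays, 4.03, 3.88 and 3.68 in Brain arrays and 5.19, 4.52 and 4.74 in Fibroblast arrays. SKN arrays lay above Brain arrays in both genes, with the wider gap in HOXA9. The differences were 2.61 ± 0.18 log2 units for HOXA9 (SE, adjusted p = 4.76e-05) and 0.61 ± 0.18 for HOXB9 (adjusted p = 0.0482). The HOXB9 call was the least stable of the 16. It ended in 7 of the 9 removals of 1 array, all but those of Fibroblast 1 and Fibroblast 2 (adjusted p up to 0.146).

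Group 10 genes suppress ribs in the lumbar spine of mice. HOXA10 read 5.31, 5.58 and 6.06 log2 units in SKN arrays, 4.80, 4.84 and 4.73 in Brain arrays and 5.75, 5.92 and 5.58 in Fibroblast arrays. HOXC10 read 5.21, 5.84 and 6.07 log2 units in SKN arrays, 4.72, 4.92 and 4.48 in Brain arrays and 5.35, 5.43 and 5.08 in Fibroblast arrays. SKN arrays were above Brain arrays in both, by 0.86 ± 0.18 log2 units for HOXA10 (SE, adjusted p = 0.0143) and 1.00 ± 0.23 for HOXC10 (adjusted p = 0.018). The HOXC10 call ended without SKN 2, SKN 3 or Brain 3 (adjusted p up to 0.0644). HOXD10 was not called, at 0.32 log2 units (95% interval -0.10 to 0.74), and a further HOXD10 probe set with a lower mean read between 2.32 and 2.71 log2 units in the 9 arrays.

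Groups 11 to 13 act in the sacral and tail region and in the outer limb. None of their 7 measured genes was called between SKN and Brain arrays, beside 7.64% higher and 8.73% lower over all probe sets. For 7 genes a count of 0 was near those shares. HOXA11 and HOXD12 were higher at an unadjusted p below 0.05 in limma. HOXA11 read 1.80, 2.13 and 2.74 log2 units in SKN arrays, 1.58, 1.80 and 1.76 in Brain arrays and 1.87, 1.81 and 1.72 in Fibroblast arrays. SKN 3 was the highest array and the groups overlapped. In every array HOXA11 lay below the lower quartile, which was between 2.89 and 2.96 log2 units. HOXA13, needed for digits and the genital tract, read 4.12, 4.47 and 4.54 log2 units in SKN arrays, 4.27, 4.18 and 4.28 in Brain arrays and 4.66, 5.08 and 5.00 in Fibroblast arrays. HOXC13, a regulator of hair keratins, read 3.86, 4.02 and 3.98 log2 units in SKN arrays, 3.60, 3.73 and 3.86 in Brain arrays and 3.86, 3.95 and 4.14 in Fibroblast arrays. SKN and Brain arrays overlapped in HOXA13 and HOXC13. The SKN minus Brain differences of the 7 genes lay between -0.13 (HOXC12) and 0.51 log2 units (HOXA11).

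HOXB13, a gene of the tail region and the prostate, read 3.52, 3.39 and 3.74 log2 units in SKN arrays, 3.53, 3.58 and 3.53 in Brain arrays and 3.80, 3.84 and 4.08 in Fibroblast arrays. Fibroblast arrays lay above both other groups, but no comparison was called (adjusted p = 0.184 for SKN and 0.0754 for Brain, each against Fibroblast). HOXD12 read 3.91, 3.91 and 4.06 log2 units in SKN arrays, 3.47, 3.86 and 3.56 in Brain arrays and 3.91, 3.98 and 3.97 in Fibroblast arrays, and was not called in any comparison. HOXC11 spread most in Fibroblast arrays, at 3.22, 4.04 and 3.22 log2 units (SD 0.48, n = 3). Its SD was 0.26 in SKN and 0.14 in Brain arrays. Every Brain array lay below both other groups, and no comparison was called.

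Brain arrays were then compared with Fibroblast arrays. Of the 31 HOX genes, 18 were called lower in Brain than in Fibroblast arrays, against 9.37% of all probe sets, and 0 were called higher, against 11.2%. At an unadjusted p below 0.05 limma's counts were 24 lower and 0 higher. All 31 differences were negative, with a median of -0.68 log2 units and a range of -3.98 to -0.08, while the median over all probe sets was -0.05. In 24 genes every Brain array lay below every Fibroblast array, which was so for 19.2% of all probe sets. This comparison shares the Brain arrays with the one against SKN, so the counts of both are not independent.

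By class, 12 of 14 central genes were called lower in Brain than in Fibroblast arrays, with a median of -1.53 log2 units. For posterior genes the count was 4 of 12, with a median of -0.53 log2 units, and for anterior genes 2 of 5, with a median of -0.17. By cluster, 8 of 10 genes of A, 5 of 9 of B, 4 of 8 of C and 1 of 4 of D were called lower. Over all probe sets 9.37% were called lower. HOXB5 and HOXB8 were the central genes not called, at -0.43 and -0.45 log2 units (adjusted p = 0.104 and 0.115).

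The differences were largest for HOXC6, at -3.98 ± 0.34 log2 units (SE, adjusted p = 0.00017), and HOXA7, at -3.40 ± 0.13 (adjusted p = 2.7e-06). HOXA9 differed by -2.86 ± 0.18 log2 units (SE, adjusted p = 3.73e-05), HOXC8 by -2.81 ± 0.15 (adjusted p = 1.65e-05) and HOXD8 by -2.36 ± 0.11 (adjusted p = 7.26e-06). In all 5 genes the Brain arrays lay below the Fibroblast arrays without overlap, at signals given above. Smaller calls were made for HOXA5 (-1.83 log2 units), HOXC4 (-1.83), HOXA6 (-1.79), HOXB4 (-1.26) and HOXB6 (-1.17), with adjusted p between 0.000866 and 0.00531.

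HOXA13, of the outermost limb and tail, was the posterior gene called beyond group 10. Brain arrays read it at 4.27, 4.18 and 4.28 log2 units, against 4.66, 5.08 and 5.00 in Fibroblast arrays. The groups did not overlap, and the difference was -0.67 ± 0.15 log2 units (SE, adjusted p = 0.0152). The call ended without Brain 2, Fibroblast 2 or Fibroblast 3 (adjusted p up to 0.0524). HOXC10, called between SKN and Brain arrays, was not called here, at -0.58 log2 units (95% interval -1.10 to -0.06, adjusted p = 0.11).

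Between SKN and Fibroblast arrays, 1 of the 31 HOX genes was called, HOXD8, which was higher in SKN arrays. Of all probe sets 3.34% were called (1.93% higher and 1.41% lower), so the HOX count was near the share over the whole array. At an unadjusted p below 0.05, 2 genes were higher and 3 were lower in SKN arrays. The median difference was -0.10 log2 units, from -0.53 to 0.95, beside -0.04 for all probe sets, whose lowest and highest deciles began at -0.39 and 0.42 log2 units. In 1 gene every SKN array lay above every Fibroblast array (10.1% of all probe sets) and in 5 genes every SKN array lay below (12.4%). The 95% interval of the difference stayed within 1 log2 unit of 0 for 28 of the 31 genes, all but HOXA5, HOXA6 and HOXD8.

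HOXD8 read 6.74, 6.74 and 6.91 log2 units in SKN arrays, against 5.97, 5.90 and 5.81 in Fibroblast arrays. The groups were apart, and SKN arrays were higher by 0.91 ± 0.11 log2 units (SE, adjusted p = 0.00374), a signal ratio of 1.87. The call held in all 9 removals of 1 array, with an adjusted p up to 0.0183. Of the fibroblast, Schwann cell and neural crest, and neural precursor markers, 0 were called between the same arrays (limma, 3 fibroblast markers higher and 2 neural precursor markers lower in SKN arrays at an unadjusted p below 0.05). Of the other marker lists, 1 of 5 neuron markers was called higher in SKN than in Fibroblast arrays (STMN2, 3.91 log2 units, adjusted p = 0.00514). So was 1 of 5 astrocyte markers (ALDH1L1, 0.80, adjusted p = 0.0402), and 1 of 5 endothelium markers was lower (KDR, -1.32, adjusted p = 0.0296). Over all probe sets 1.93% were higher and 1.41% lower. The other neuron markers lay between -0.14 (MAP2) and 0.29 log2 units (DCX), and the other astrocyte markers between -0.10 (AQP4) and 0.83 (SLC1A3). The other endothelium markers went the opposite way to KDR, from 0.02 (VWF) to 0.56 log2 units (PECAM1), without a call. The part of these markers in the HOXD8 difference was not tested.

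The largest difference in size was that of HOXA5, at 0.95 log2 units higher in SKN arrays, and it was not called (95% interval 0.21 to 1.69, adjusted p = 0.18). Its arrays overlapped, at 6.33, 5.92 and 7.11 log2 units in SKN and 5.99, 5.28 and 5.23 in Fibroblast cultures. HOXA13 lay lower in every SKN array than in any Fibroblast array, by -0.53 log2 units (95% interval -0.88 to -0.19, adjusted p = 0.108). HOXA3, HOXB4, HOXB8 and HOXB13 also lay below without overlap and without a call. All 9 genes of cluster B had a negative difference, between -0.36 and -0.02 log2 units, and 0 of them were called (0 higher and 1 lower at an unadjusted p below 0.05).

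**Figure D4:**
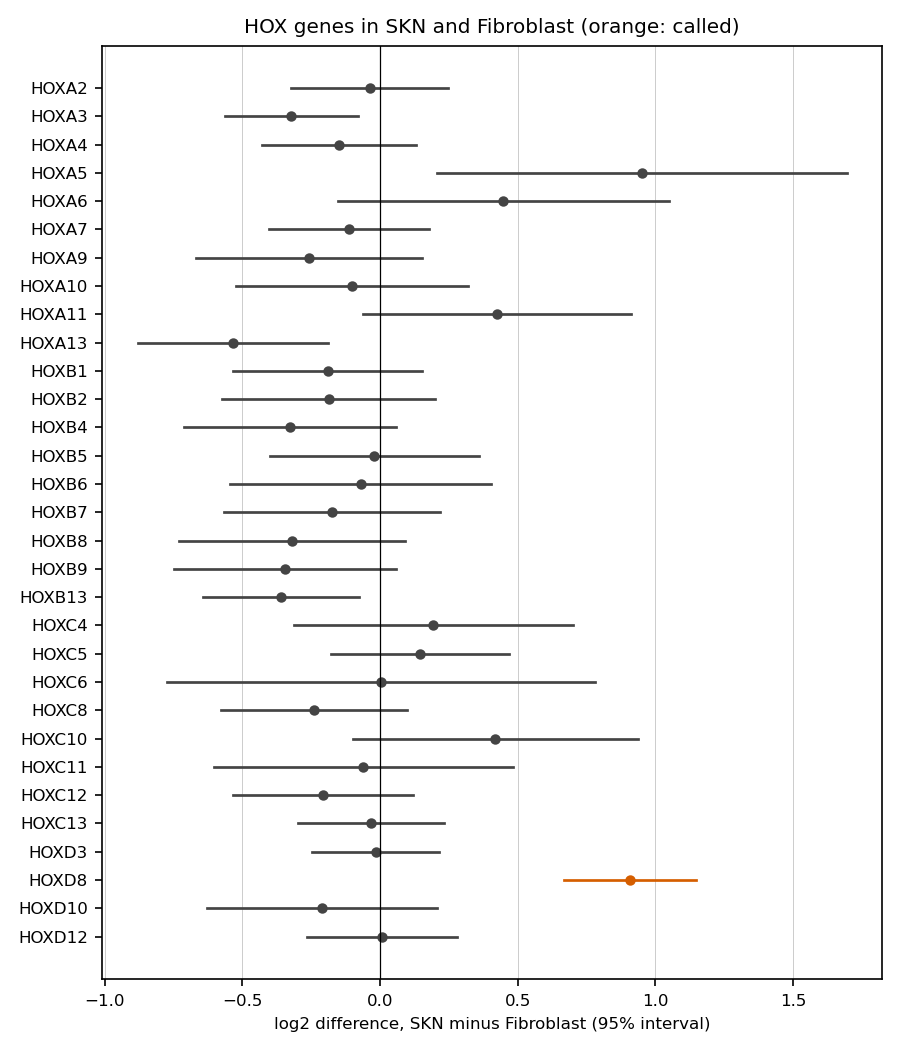
Log2 difference of SKN minus Fibroblast means (horizontal axis, points) with its 95% interval from limma (lines) for each of the 31 HOX genes, ordered by cluster and paralogue from the top. HOXD8, in orange, is the gene with an adjusted p below 0.05, and the intervals of HOXA5, HOXA6 and HOXD8 alone reach past 1.

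Within groups, a few genes set single arrays apart. In HOXA5 and HOXA6, which lie side by side, SKN 3 was the highest SKN array (7.11 and 6.58 log2 units) and Fibroblast 1 the highest Fibroblast array (5.99 and 6.02). In HOXA9, HOXA10, HOXA11 and HOXC10 the SKN arrays also had SKN 3 highest and SKN 1 lowest. In HOXB5, HOXB6 and HOXB7 the highest SKN array was SKN 2, at 4.30, 6.17 and 4.55 log2 units. HOXC5 and HOXB8 were the most even in SKN arrays, with SDs of 0.01 and 0.02 log2 units (n = 3), and HOXC6 the least even in Brain arrays, with an SD of 0.80.

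Several HOX genes overlap in the reference annotation, so their signals may not be independent. HOXA3 overlaps HOXA4, HOXA5 and HOXA6, and HOXA5 overlaps HOXA6. HOXC4 overlaps HOXC5, HOXC6 and HOXC8, HOXC6 overlaps HOXC5, and HOXB8 overlaps HOXB9. Whether their probe sets share sequence was not tested. Of the 31 genes, 10 had the same value in 2 or more arrays to the last digit, as had 33.8% of all probe sets. HOXA7 in SKN 1 and SKN 3 is an example.

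HOX proteins bind DNA together with cofactors of the TALE homeodomain class, among them the PBX and MEIS proteins. Of 11 listed TALE genes, 9 were measured. Between SKN and Brain arrays 2 were called higher and 2 lower, with a median difference of -0.25 log2 units, beside 7.64% higher and 8.73% lower over all probe sets. MEIS1 read 9.59, 8.73 and 8.99 log2 units in SKN arrays, 5.17, 5.10 and 5.64 in Brain arrays and 7.32, 8.46 and 7.40 in Fibroblast arrays. The 3 groups did not overlap, with SKN highest and Brain lowest, the same order as for HOXD8. MEIS1 was higher in SKN than in Brain arrays by 3.80 ± 0.34 log2 units (SE, adjusted p = 0.00017). Its Brain minus Fibroblast difference was -2.43 ± 0.34 log2 units (SE, adjusted p = 0.00172). Between SKN and Fibroblast arrays it was not called, at 1.37 log2 units (adjusted p = 0.0721).

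PBX3 was higher in SKN than in Brain arrays by 0.77 ± 0.17 log2 units (SE, adjusted p = 0.0145), a call that ended without Brain 3 (adjusted p up to 0.0865 over all alternatives). PKNOX2, a relative of the MEIS genes, ran the other way, with 4.73, 4.34 and 4.37 log2 units in SKN arrays, 6.22, 6.34 and 6.50 in Brain arrays and 4.81, 4.69 and 4.54 in Fibroblast arrays. Brain arrays stood above both other groups, and the SKN minus Brain difference was -1.87 ± 0.14 log2 units (SE, adjusted p = 7.42e-05). MEIS2 was not called in any comparison (SKN minus Brain -0.25 log2 units, adjusted p = 0.69). No TALE gene was called between SKN and Fibroblast arrays (limma, 1 higher and 1 lower at an unadjusted p below 0.05).

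**Figure D5:**
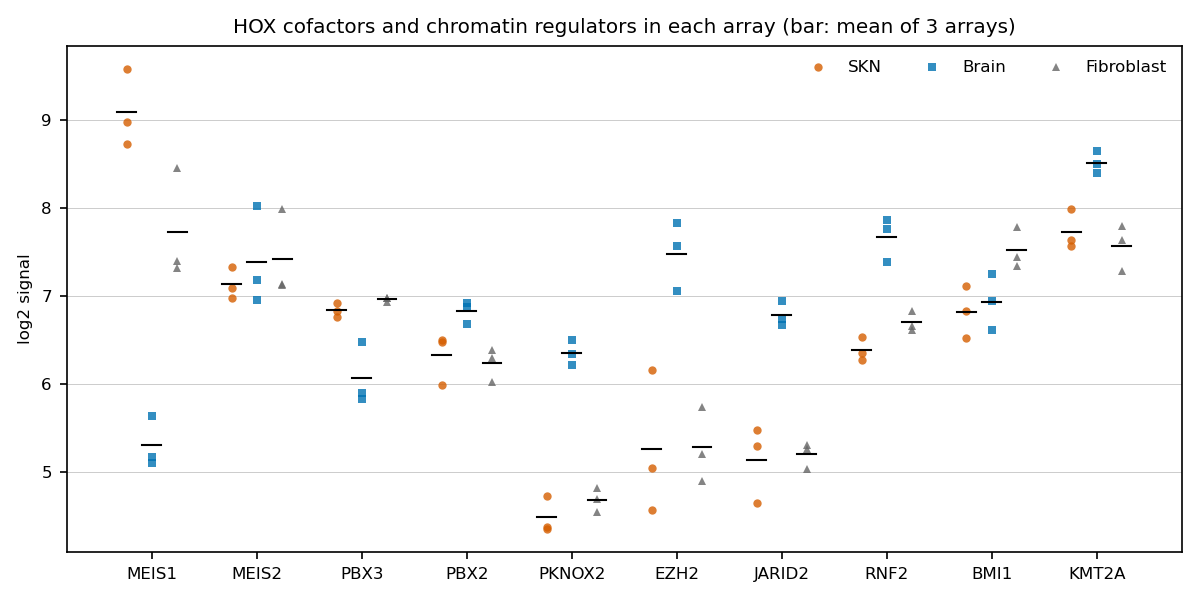
Log2 signal (vertical axis) of HOX cofactors and chromatin regulators (horizontal axis) in each array, with SKN as circles, Brain as squares, Fibroblast as triangles and a bar at the mean of 3 arrays. MEIS1 is highest in SKN arrays, from 8.73 to 9.59, while PKNOX2, EZH2, JARID2, RNF2 and KMT2A are highest in Brain arrays.

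Polycomb proteins keep HOX genes silent by marking their chromatin with methylated lysine 27 of histone H3. Of 22 measured genes of a list of Polycomb proteins and the demethylases that remove their mark, 10 were called lower and 1 higher in SKN than in Brain arrays, with a median of -0.46 log2 units. Over all probe sets 8.73% were lower and 7.64% higher. The 10 include the demethylase KDM6B (-0.53 log2 units, adjusted p = 0.0449), whose call ended in 10 of the 21 alternatives, among them the removal of any 1 SKN or Brain array or of Fibroblast 1. EZH2, the methyltransferase, read 6.16, 4.57 and 5.04 log2 units in SKN arrays, 7.83, 7.05 and 7.57 in Brain arrays and 5.74, 5.20 and 4.90 in Fibroblast arrays. Brain arrays lay above both other groups, and EZH2 was lower in SKN than in Brain arrays (-2.23 ± 0.41 log2 units, SE, adjusted p = 0.00691). JARID2, a subunit that recruits the same complex, differed by -1.65 log2 units and RNF2, a histone H2A ubiquitin ligase, by -1.28 (both called). SCMH1 was the member called higher, by 0.87 log2 units (adjusted p = 0.0145), a call lost without SKN 2 or Brain 3. BMI1, a partner of RNF2, was not called (-0.11 log2 units, adjusted p = 0.803). Whether genes of this list had a part in the HOX signals was not tested.

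Trithorax proteins oppose Polycomb and keep HOX genes active. The list measured here held 14 genes of Trithorax proteins, the MLL complex and associated factors such as DOT1L and PSIP1. For short they are called Trithorax genes. Of the 14, 5 were called lower (8.73% of all probe sets) and 0 higher (7.64%) in SKN than in Brain arrays. At an unadjusted p below 0.05 in limma 7 were lower and 0 higher, and the median was -0.46 log2 units. KMT2A, the methyltransferase MLL that maintains HOX expression, differed by -0.79 ± 0.17 log2 units (SE, adjusted p = 0.0138), a call lost without SKN 2, SKN 3 or Brain 3. DOT1L, a histone H3 methyltransferase, differed by -1.29 log2 units and PSIP1, which tethers the MLL complex to chromatin, by -1.17. The PSIP1 call ended without SKN 2, SKN 3, Brain 1 or Brain 3. Against Fibroblast arrays, 11 of 22 genes of the Polycomb and demethylase list were called higher and 2 lower in Brain arrays, and 9 of 14 Trithorax genes higher and 1 lower, beside 11.2% higher and 9.37% lower over all probe sets. The list medians were 0.35 and 0.54 log2 units. The 11 include the demethylase KDM6A (0.52 log2 units, adjusted p = 0.0489), whose call ended in 15 of the 21 alternatives, among them the removal of any 1 array. No gene of either list was called between SKN and Fibroblast arrays, where the unadjusted limma counts were 2 higher and 6 lower for the Polycomb and demethylase list and 1 higher and 1 lower for Trithorax genes. The part of either list in the HOX signals was not tested.

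Retinoic acid induces HOX genes in embryos. The list measured here held 19 genes, of HOX inducers, retinoid genes and other regulators such as GMNN and CTCF. For short they are called inducers. Of the 19, 3 were called higher and 5 lower in SKN than in Brain arrays, with a median difference of -0.13 log2 units. Over all probe sets 7.64% were higher and 8.73% lower. The lower calls include GMNN and CTCF, and the higher calls CYP26B1, whose call ended in 9 of the 21 alternatives. The counts therefore do not show more or less induction. CRABP2, which carries retinoic acid to its receptors, read 9.42, 9.71 and 9.51 log2 units in SKN arrays, 3.75, 3.49 and 3.61 in Brain arrays and 5.87, 4.61 and 4.31 in Fibroblast arrays. SKN arrays stood far above the rest, by 5.93 ± 0.35 log2 units against Brain arrays (SE, adjusted p = 2.03e-05) and 4.62 ± 0.35 against Fibroblast arrays (adjusted p = 0.000462). RXRG, a retinoid receptor, was lower in SKN than in Brain arrays (-5.40 ± 0.33 log2 units, SE, adjusted p = 2.45e-05). The part of these genes in the HOX signals was not tested.

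Other position genes were counted beside the HOX genes. Of 19 body wall and limb factors, 9 were called higher (7.64% of all probe sets) and 0 lower (8.73%) in SKN than in Brain arrays (limma, 11 higher and 0 lower at an unadjusted p below 0.05). The median of the list was 0.44 log2 units. Its calls were led by TBX18 (5.10 log2 units), TBX15 (3.80) and PRRX1 (2.89), all transcription factors of mesenchyme. SHOX2, a limb bone factor, read 5.74, 6.19 and 6.02 log2 units in SKN arrays, 3.95, 3.92 and 4.15 in Brain arrays and 8.39, 8.80 and 8.88 in Fibroblast arrays. It was lower in SKN than in Fibroblast arrays (-2.71 ± 0.17 log2 units, SE, adjusted p = 0.000181). Of 12 head and forebrain factors, 1 was called between SKN and Brain arrays (higher, beside 7.64% of all probe sets), EMX2, which also stands in the body wall list and was higher in SKN arrays by 1.99 log2 units (adjusted p = 0.000653).

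Of 20 measured chromosomal neighbours of the clusters, 4 were called higher (7.64% of all probe sets) and 2 lower (8.73%) in SKN than in Brain arrays, with a median difference of 0.19 log2 units. The count of lower calls was near the share over all probe sets. SNX10, a neighbour of cluster A in the reference annotation, read 6.81, 7.60 and 7.82 log2 units in SKN arrays, 3.80, 3.38 and 3.61 in Brain arrays and 8.59, 8.40 and 9.07 in Fibroblast arrays. It was higher in SKN than in Brain arrays by 3.81 ± 0.28 log2 units (SE, adjusted p = 6.29e-05). MTX2, next to HOXD1, was higher by 0.92 log2 units (adjusted p = 0.00835), and CBX5, separated from HOXC5 by 2 coding genes, was lower (-1.60 log2 units, adjusted p = 0.00282). In Brain against Fibroblast arrays 2 of the 20 were called higher and 8 lower (11.2% and 9.37% of all probe sets). SKAP2, SKAP1, TTLL6, SMUG1, EVX1 and EVX2 were not called in any comparison. They have 0 coding genes between them and a cluster's annotated HOX genes. MTX2, also with 0 between, was called in both comparisons with Brain arrays. A link between these neighbours and the HOX signals was not tested.

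Of 19 measured genes reported elsewhere as regulated by HOX proteins, 8 were called higher and 5 lower in SKN than in Brain arrays, with a median difference of 0.50 log2 units, beside 7.64% and 8.73% of all probe sets. Against Fibroblast arrays, 1 was called higher and 3 lower in SKN arrays (1.93% and 1.41% of all probe sets), and 4 higher and 9 lower in Brain arrays (11.2% and 9.37%). CDH11, a mesenchymal cadherin, was higher in SKN than in Brain arrays by 5.84 log2 units and TNC, a matrix protein, by 4.81 (adjusted p = 0.00168 and 0.00112). NCAM1, a neural adhesion molecule, was lower (-2.70 log2 units, adjusted p = 0.0119). Mesenchymal cells in general express CDH11 and TNC, and neural cells NCAM1, so the part of cell type in these counts was not tested.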

How the data were processed

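The labels' protocols give Trizol RNA from untreated cultures and biotin labelling. The authors deposited log2 values for 32205 probe sets in 9 arrays. MAS5, RMA and Partek are named, per the submitters' processing notes, with no role or version. The log base was inferred from the range, and the values were used as deposited, without a filter. Of the probe sets, 16545 carried 1 gene symbol, 370 several and 15290 none. The reference table (RefSeq, UU_Cfam_GSD_1.0) served for names and neighbours only, and 28 of 31 HOX genes matched it by identifier.

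A group-mean model was fitted to all 9 arrays with limma 3.58.1 in R 4.3.3 (6 residual and 2.41 prior degrees of freedom). The tests were 2-sided, with Benjamini-Hochberg adjustment over all probe sets and a threshold of 0.05. The fit was tested on simulated data. The number of arrays limits the precision, and 3 arrays against 3 cannot go below 0.1 in an exact permutation test. Alternatives changed moderation, weights, normalization, filtering, probe set choice, the replicate block and the arrays used. The HOX genes, gene lists and tests were chosen with earlier results of these data known. Every HOX gene could be named. From each related list, the rule named called members with the 3 largest positive and 3 largest negative differences, plus MEIS1, MEIS2, EZH2, BMI1 and KMT2A. The demethylases KDM6A and KDM6B, CTCF and the unmoved cluster neighbours were named outside this rule, the neighbours and CTCF after their values were seen. Some items that this rule covers are not reported here. No sequences are shown.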

Additional observations from a re-analysis of the deposited data

How the results depend on the processing

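The 21 alternatives kept the direction of every called HOX gene. The count of 16 HOX genes higher in SKN than in Brain arrays lay between 11 and 16 and was 12 to 16 when 1 array was left out, with 12 without SKN 2 or Brain 3. The count of 18 lower in Brain than in Fibroblast arrays lay between 13 and 19 and was 15 to 19 when 1 array was left out. The single HOXD8 call between SKN and Fibroblast arrays held in every alternative, and its removals gave 1 throughout. Leaving out Fibroblast 1 and Brain 3 together, chosen after seeing the data, gave 11, 1 and 13. Across all alternatives 11 of the 16 calls and 12 of the 18 were kept. Of the 16, HOXA10 was lost only without both arrays, and of the 18, HOXA4, HOXA10 and HOXB7 likewise. Deviations of same-numbered arrays from their group means had correlations of -0.045 to 0.145. Differently numbered arrays were not compared in this way, so whether the numbers pair the samples was not settled. With the replicate number as a block the counts were 15, 1 and 18. The block ended the calls of HOXB9 (SKN and Brain) and HOXA3 (Brain and Fibroblast), and HOXD10 was called lower in Brain than in Fibroblast arrays. For these changes the cause was not tested, apart from the fewer arrays in each removal.

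Counts over the related lists moved more. Between SKN and Brain arrays the called TALE genes ranged from 2 to 5 (4 in the values above), Polycomb and demethylase genes from 6 to 14 (11), Trithorax genes from 3 to 7 (5), inducers from 4 to 10 (8) and reported targets from 8 to 13 (13). Between Brain and Fibroblast arrays TALE genes ranged from 2 to 4 (4), Polycomb and demethylase genes from 7 to 13 (13), Trithorax genes from 4 to 10 (10), inducers from 3 to 8 (8), head factors from 1 to 3 (1) and neighbours from 6 to 11 (10). Between SKN and Fibroblast arrays inducers ranged from 1 to 3 (2), body wall factors from 1 to 4 (2), neighbours from 0 to 1 (1), TALE genes from 0 to 1 (0), Trithorax genes from 0 to 1 (0) and reported targets from 2 to 5 (4).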

Other observations

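In these arrays the paralogues of one number did not move by equal amounts. In group 6 the SKN minus Brain difference was 2.23 log2 units for HOXA6, 1.10 for HOXB6 and 3.99 for HOXC6, and in group 8 it was 0.14 for HOXB8, 2.57 for HOXC8 and 3.27 for HOXD8. Probe sets can differ in response, and the difference between paralogues was not tested.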
